A study of Mus musculus with 12 samples.

Results

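The 10 astrocyte genes Gfap, Aqp4, Aldh1l1, Gja1, S100b, Glul, Clu, Apoe, Vim and Sparcl1 were followed through 12 RNA-seq libraries of mouse brain and skull. The genes were taken by name, with no threshold on a measured value, and all 10 of them were among the 22317 genes of the raw count table. Wild-type male BALB/c mice, 8 weeks old, had received photothrombosis, in which a laser excites the injected dye Rose Bengal and clots the vessels under the beam. The libraries form 4 groups of 3. The groups labelled SB2 and SB4 are brain cortex on day 2 and day 4 after injury of the skull, and the groups labelled BS2 and BS6 are interparietal bone, a plate of the skull roof, on day 2 and day 6 after injury of the brain. The uninjured controls and the tissues at the injury itself are not analysed here. The 3 libraries of a group are stated to be biological replicates, but whether each came from 1 animal is not, and the p-values measure the spread between these libraries.

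Astrocytes are the glial cells that clear glutamate and potassium from around synapses, wrap blood vessels with their endfeet and supply neurons with glutamine and lipids. Their markers fall into classes. Gfap and Vim encode intermediate filaments, Aqp4 the water channel of the endfeet, Gja1 the main astrocyte connexin, Glul glutamine synthetase, Aldh1l1 a cytosolic folate enzyme, and Apoe, Clu and Sparcl1 secreted proteins. Several of them are not restricted to astrocytes: Vim is a general filament of mesenchymal cells, Gja1 couples osteoblasts and osteocytes, S100b is also made by chondrocytes and Schwann cells, and Apoe is a product of macrophages. A bulk library of bone can therefore hold these transcripts with no brain in it. In bulk RNA, fewer cells of a type and less RNA per cell cannot be told apart.

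The tissue content of the libraries was read before the astrocyte genes, from lists of cell type markers. Levels are in CPM, counts scaled to the library total after its adjustment by TMM. The summed level of 12 neuron genes was 13583 to 14505 CPM in SB4 and 13242 to 13638 CPM in BS2. In SB2 it was 86.3 to 134 CPM and in BS6 88.5 to 171 CPM. The 10 osteoblast and osteocyte genes ran the other way, at 71435 to 81538 CPM in SB2 and 42637 to 163852 CPM in BS6 against 162 to 185 CPM in SB4 and 164 to 193 CPM in BS2. The libraries labelled SB2 and BS2 therefore go against their labelled tissue: SB2 is bone-rich and BS2 brain-rich by these markers. Whether these 2 labels were exchanged cannot be told from the files. If they were, the comparisons between days within a tissue would be SB4 against BS2 and SB2 against BS6, and those of SB4 with SB2 and of BS6 with BS2 would be between tissues. Group names below are the labels, and "brain-rich" means SB4 and BS2, "bone-rich" SB2 and BS6. Days below are those of the labels. Each change between days under 1 label prefix, SB4 against SB2 and BS6 against BS2, is at the same time a change between a brain-rich and a bone-rich group, and there day, injury and tissue content cannot be told apart. Library totals were 14126082 to 18972654 counts. BS6 replicate 2 stood apart from the other bone-rich libraries, with 24343 CPM of 6 neutrophil-lineage genes against 1408 and 3313 CPM in its partners.

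Of the 10 members, 9 passed the test between SB4 and SB2, 7 higher and 2 lower in SB4. A gene was called when edgeR's quasi-likelihood test gave a Benjamini-Hochberg adjusted p under 0.05 and the absolute log2 fold change was over 1. Of all 17293 genes tested, 27.8% were called higher and 28.6% lower, so that being called was common in this table. Between BS6 and BS2, 2 members were called higher and 6 lower in BS6, against 29.0% and 26.5% of 17311 genes. Without BS6 replicate 2 the counts were again 2 and 6, and 56.0% of all genes were called either way. The shares of all genes given here also stand beside the counts of list genes in these 2 pairs below. The direction went with the tissue content of the groups. Gfap, Aqp4, Aldh1l1, Glul, Clu and Sparcl1 were called higher in the brain-rich group of both pairs, and Gja1 and Vim were called higher in the bone-rich group of both. S100b was called in the first pair only, and Apoe, with an adjusted p under 0.05 in each, stayed below the fold threshold in both. An adjusted p under 0.05 alone was reached by all 10 members in the first pair and 9 in the second, as by 83.3% and 75.0% of all genes. The libraries of the 2 groups did not overlap for 10 members in the first pair and 9 in the second, as for 85.5% and 80.8% of all genes. The median log2 fold change of the members was 1.89 for SB4 against SB2 and -1.53 for BS6 against BS2, beside -0.0149 and 0.020 over all genes tested. The counts and the directions are a description of these libraries and single out nothing about the list.

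**Figure D1:**
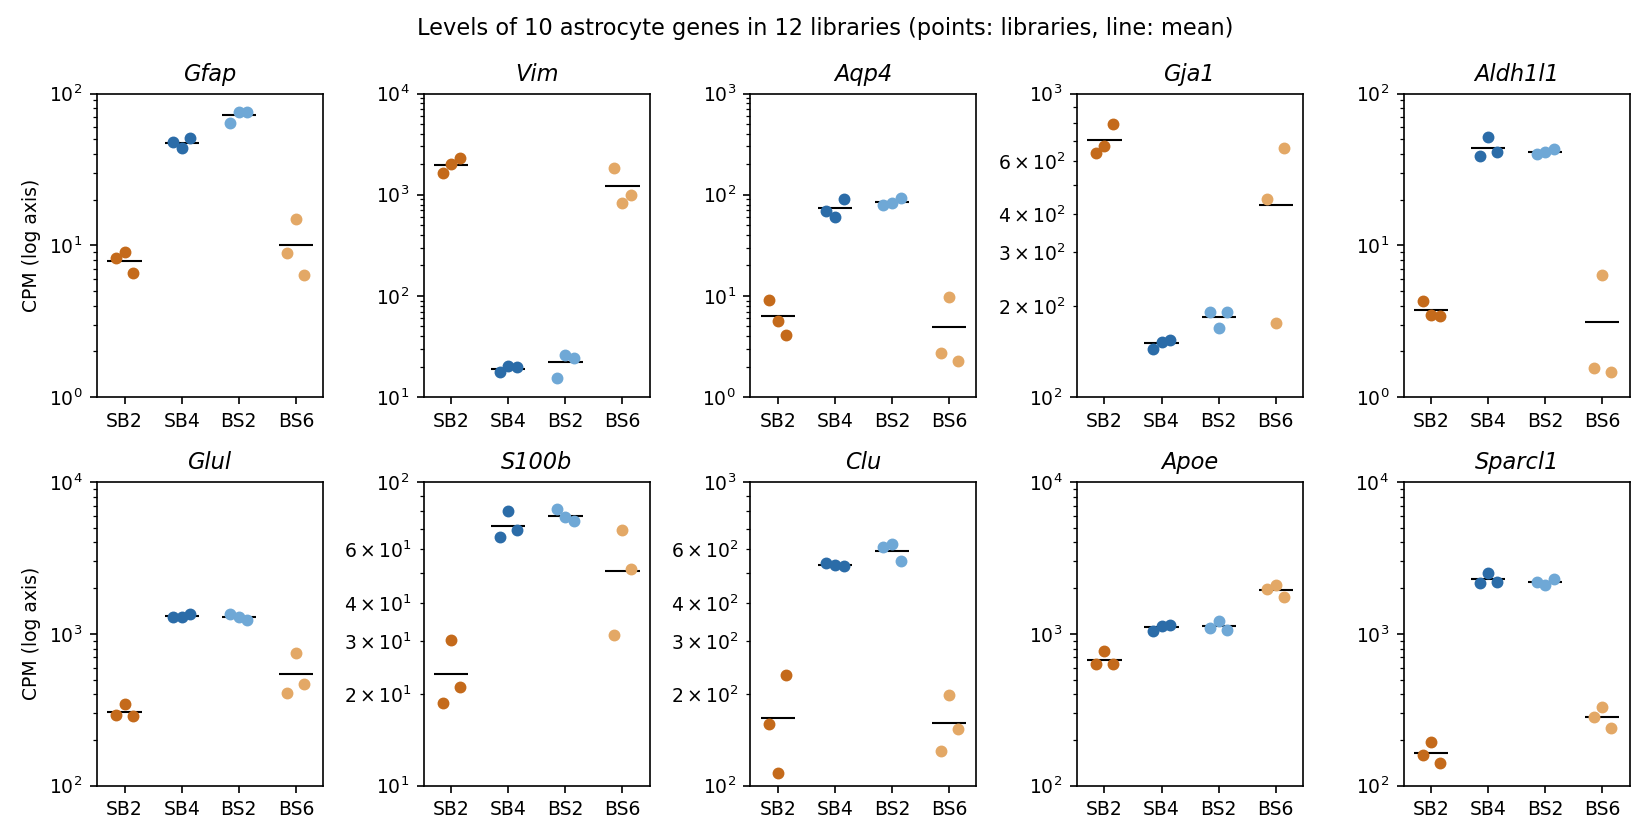
Level of each of the 10 astrocyte genes in the 12 libraries, in CPM on a log axis, with 1 point per library, a bar at the group mean, and the groups SB2, SB4, BS2 and BS6 along the x axis. Gfap, Aqp4, Aldh1l1, Glul, Clu and Sparcl1 lie higher in SB4 and BS2 than in SB2 and BS6, Vim lies far lower there, and Apoe is highest in BS6.

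Gfap (chr11:102887336-102900912, minus strand, mm10, GENCODE M21 gene model, as for the other members) encodes the filament protein by which astrocytes are most often stained and which rises in reactive astrocytes. Its level was 48.1, 43.5 and 50.6 CPM in the SB4 libraries and 64.4, 75.4 and 76.1 CPM in BS2. In the bone-rich groups it was 8.2, 8.99 and 6.53 CPM in SB2 and 8.87, 14.9 and 6.36 CPM in BS6. Every brain-rich library was above every bone-rich one. The level was 6.02 times as high in SB4 as in SB2 (log2 fold change 2.59, SE 0.12, adjusted p = 3.35e-09), and the order of days was the opposite for BS6 against BS2 (log2 fold change -2.79, SE 0.32, adjusted p = 0.000313). The groups ordered as BS2, SB4, BS6 and SB2 by their means, and the neighbours BS6 and SB2 overlapped (adjusted p = 0.505). Gfap was also lower in SB4 than in BS2, where the libraries did not overlap, by a log2 fold change of -0.62 (SE 0.08, adjusted p = 0.000135), which is under the fold threshold.

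Vim (chr2:13573927-13582826, plus strand), the filament gene of mesenchymal cells, endothelium and immature or reactive glia, had the largest difference of the 10 members in both pairs. The SB2 libraries held 1650.1, 1992 and 2282 CPM and the BS6 libraries 1830.5, 825 and 984 CPM. In SB4 the level was 17.6, 20.1 and 19.7 CPM and in BS2 15.6, 26 and 24.5 CPM. No bone-rich library came near a brain-rich one. The log2 fold change was -6.68 for SB4 against SB2 (SE 0.15, adjusted p = 6.71e-12) and 5.82 for BS6 against BS2 (SE 0.43, adjusted p = 4.56e-05). Seen from bone, the brain-rich groups held 0.968% of the Vim level of SB2 and 1.82% of that of BS6. Neither SB2 and BS6 (adjusted p = 0.217) nor SB4 and BS2 (adjusted p = 0.674) passed the test for this gene. Filament genes were called in both directions in each pair. Of 14 intermediate filament genes, which include Gfap and Vim, 7 were called higher and 6 lower in SB4 than in SB2. Of the 13 tested between BS6 and BS2, 4 were called higher and 5 lower in BS6, and 4 were not called. The neurofilament gene Nefl stood at 275 ± 6.95 CPM (SD, n = 3) in SB4 and 0.445 ± 0.368 CPM in SB2, and the lamin gene Lmna at 50.3 ± 4.2 CPM in SB4 and 675 ± 128 CPM in SB2.

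Gja1 (chr10:56377330-56402513, plus strand) was the other member with more transcript in bone-rich libraries. It was at 635, 673 and 794 CPM in SB2 and 144, 152 and 155 CPM in SB4, groups that did not overlap (log2 fold change -2.21, SE 0.09, adjusted p = 1.15e-09). In BS6 it was at 448, 176 and 661 CPM and in BS2 at 191, 169 and 191 CPM. Here the groups overlapped, since BS6 replicate 2 lay within the range of BS2, and the call (log2 fold change 1.25, SE 0.44, adjusted p = 0.0375) was lost without any 1 of the other 5 libraries, where the adjusted p ran up to 0.113. Without BS6 replicate 2 the log2 fold change was 1.63 (adjusted p = 4.19e-05). That library also had the lowest osteoblast and osteocyte sum of BS6, 42637 CPM against 113463 and 163852 CPM, and the part of this in the Gja1 level was not tested. Among 11 connexins tested, 6 were called higher and 5 lower in SB4 than in SB2. Gjb6, the other connexin of astrocytes, was at 45.3 ± 4.8 CPM in SB4 and 10.7 ± 2.99 CPM in SB2 (log2 fold change 2.08, SE 0.18, adjusted p = 3.84e-06), opposite to Gja1 in that pair, and Gjc3 of oligodendrocytes was at 48.3 ± 3.28 and 1.54 ± 0.582 CPM. In BS6 and BS2 Gjb6 was at 28.1 ± 19 and 46.7 ± 2.18 CPM and did not pass (log2 fold change -0.69, SE 0.47, adjusted p = 0.221). That result depended on BS6 replicate 2, since the 3 BS6 libraries held 12.4, 49.2 and 22.7 CPM. Without replicate 2 the BS6 mean of Gjb6 was 17.6 CPM. All 11 connexins were then called, 5 higher and 6 lower in BS6, against 5 and 5 with that library.

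The promoters of the astrocyte filament gene and of the 2 members that were higher in bone-rich libraries are shown to set the sequence beside these opposite levels. They are RefSeq sequences of GRCm38.p6, each 250 bases before to 50 bases after the annotated start, and capitals mark the motifs found. The motifs searched, 6 in all and on both strands, were TTGGC (nuclear factor I, NFI), TTCNNNGAA (STAT), ACAAAG or ACAAT (SOX), ACCACA (RUNX), TGANTCA (AP-1) and TATAAA (the TATA box). The Gfap start is the RefSeq one at chr11:102897151-102897450 on the minus strand, inside the longer gene model given above. The Vim window is chr2:13574061-13574360 and the Gja1 window chr10:56377050-56377349, both on the plus strand.
Gfap: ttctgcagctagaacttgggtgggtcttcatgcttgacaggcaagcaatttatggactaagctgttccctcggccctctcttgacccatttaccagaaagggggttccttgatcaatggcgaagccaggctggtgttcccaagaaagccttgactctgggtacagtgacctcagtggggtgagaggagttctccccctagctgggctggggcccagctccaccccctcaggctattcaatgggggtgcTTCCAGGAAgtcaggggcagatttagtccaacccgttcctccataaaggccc
Vim: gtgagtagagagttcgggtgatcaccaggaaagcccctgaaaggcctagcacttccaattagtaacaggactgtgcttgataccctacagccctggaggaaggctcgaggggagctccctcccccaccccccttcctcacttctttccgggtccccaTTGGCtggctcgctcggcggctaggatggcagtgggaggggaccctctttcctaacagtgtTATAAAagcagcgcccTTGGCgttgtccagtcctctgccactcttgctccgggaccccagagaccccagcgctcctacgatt
Gja1: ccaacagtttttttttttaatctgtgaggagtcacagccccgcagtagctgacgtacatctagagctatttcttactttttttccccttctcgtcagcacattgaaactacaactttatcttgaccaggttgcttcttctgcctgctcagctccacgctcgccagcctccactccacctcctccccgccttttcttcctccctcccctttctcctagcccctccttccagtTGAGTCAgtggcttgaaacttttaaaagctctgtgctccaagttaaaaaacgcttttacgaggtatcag
The Gfap window held 1 STAT match, a pattern found in 8.3% of all 32851 RefSeq promoter windows. In Vim there were 2 NFI matches, present in 46.7% of windows, and 1 TATA box, in 13.6%. The Gja1 window held 1 AP-1 match, in 7.8% of windows. None of the capitals overlapped another motif. A match is a run of letters only, and nothing in these data measured binding at it. Of the 10 members 7 had an entry in the promoter table, and the windows of S100b held 4 NFI matches, of Glul 2, and of Aldh1l1 none of the 6 motifs.

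Aqp4, on chromosome 18, and Aldh1l1 (chr6:90486427-90600203, plus strand) were the 2 members with the lowest levels in bone-rich libraries per transcript length. Aqp4 was at 68.8, 60 and 91.6 CPM in SB4 and 78.5, 82 and 93.7 CPM in BS2, against 9.11, 5.59 and 4.15 CPM in SB2 and 2.74, 9.78 and 2.29 CPM in BS6. All brain-rich libraries were above all bone-rich ones, with a log2 fold change of 3.54 for SB4 against SB2 (SE 0.32, adjusted p = 9.63e-05) and -4.05 for BS6 against BS2 (SE 0.58, adjusted p = 0.000844). For Aldh1l1, whose enzyme oxidises formyltetrahydrofolate, the brain-rich libraries held 38.9, 52 and 40.9 CPM in SB4 and 39.8, 41.1 and 42.8 CPM in BS2. The bone-rich libraries held 4.33, 3.46 and 3.42 CPM in SB2 and 1.56, 6.34 and 1.46 CPM in BS6. These groups did not overlap either (SB4 against SB2, log2 fold change 3.55, SE 0.15, adjusted p = 1.05e-09; BS6 against BS2, log2 fold change -3.67, SE 0.58, adjusted p = 0.00135). In both genes 1 bone library differed from its partners: BS6 replicate 2 held more than any other bone-rich library. Its neuron sum was 171 CPM against 88.5 and 93.6 CPM in its partners, and its oligodendrocyte sum 414 against 179.5 and 201 CPM. Whether these sums bear on the Aqp4 and Aldh1l1 levels was not tested. Exons of Aldh1l1 overlap those of an antisense gene, Gm15756, over 499 bases, and whether the counting used strand is not given in the sources used here.

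The families of both genes were led by other members in bone. Aqp1, the water channel of red cells and endothelium, was at 307 ± 29.9 CPM in SB2 and 0.362 ± 0.0754 CPM in SB4, the reverse of Aqp4. Among 5 aquaporins tested, 2 were called higher and 2 lower in SB4. Of 15 folate enzymes, Aldh1l1 was the 1 called higher in SB4 than in SB2, and 8 were called lower, while 6 were higher and Aldh1l1 alone lower in BS6 than in BS2. Tyms, the thymidylate synthase of dividing cells, was at 27.5 ± 3.66 CPM in SB2 and 1.53 ± 0.45 CPM in SB4.

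Glul (chr1:153899944-153909723, plus strand) turns glutamate and ammonia into glutamine, in astrocytes and also in other tissues. It was at 1301, 1285 and 1358 CPM in SB4 and 1349.5, 1289.8 and 1236 CPM in BS2, and at 292, 345 and 287 CPM in SB2 and 408, 746 and 467 CPM in BS6. The brain-rich groups were above the bone-rich ones in every library, and the BS6 libraries were all above the SB2 libraries. The level was 4.28 times as high in SB4 as in SB2 (SE 0.09 on the log2 scale, adjusted p = 1.3e-09), and the log2 fold change was -1.22 for BS6 against BS2 (SE 0.25, adjusted p = 0.004), while SB2 against BS6 gave -0.83 and was not called (adjusted p = 0.0958). Of 15 genes of glutamate and glutamine handling, 11 were called higher in SB4 than in SB2 and 2 lower. Slc1a2, the main astrocyte glutamate transporter, was at 0.517% of its SB4 level in SB2, where Glul was at 23.4%. Exons of Glul share 116 bases with Teddm2 on the opposite strand, which had 470 counts over the 12 libraries.

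S100b (chr10:76253853-76261159, plus strand), a calcium-binding protein, was the 1 member whose adjusted p missed 0.05 in the BS6 pair. Its level was 65.9, 80.2 and 69.3 CPM in SB4 and 18.7, 30.2 and 21.2 CPM in SB2, without overlap (log2 fold change 1.63, SE 0.17, adjusted p = 2.46e-05). In BS2 it was 81.5, 76.7 and 74.5 CPM and in BS6 31.2, 69.6 and 51.8 CPM. The BS6 libraries lay below those of BS2 but spread widely, and the difference was not called (log2 fold change -0.57, SE 0.28, adjusted p = 0.107). Without BS6 replicate 2 the log2 fold change was -0.86 (adjusted p = 0.00715), still under the fold threshold, and over all alternatives the adjusted p reached 0.205. The 6 Schwann cell markers summed to 55.4, 108 and 63.9 CPM in the 3 BS6 libraries and to 34.5 to 58.1 CPM in SB2. The 8 chondrocyte markers summed to 1768, 972 and 3500.0 CPM in BS6 and 798 to 963 CPM in SB2. The part of either list in the S100b level was not tested. Among 11 genes tested whose symbols start with S100, of which S100pbp encodes a binding protein outside the family, S100b was the 1 called higher in SB4 than in SB2, and 7 were called lower. S100a9, a neutrophil protein, was at 2.11 ± 0.867 CPM in SB4 and 379 ± 96.5 CPM in SB2.

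Clu (chr14:65968483-65981547, plus strand), a secreted chaperone, and Sparcl1 (chr5:104079111-104113733, minus strand), a matrix protein that astrocytes release at synapses, had the brain-rich pattern. Clu was at 543, 533 and 527 CPM in SB4 and 609, 626 and 548 CPM in BS2, against 160.0, 109.7 and 232 CPM in SB2 and 129.8, 199.5 and 154 CPM in BS6. Its bone-rich libraries overlapped each other and none reached a brain-rich one (SB4 against SB2, log2 fold change 1.68, SE 0.28, adjusted p = 0.00249; BS6 against BS2, log2 fold change -1.84, SE 0.19, adjusted p = 0.000162). For Sparcl1 the levels were 2175, 2498 and 2202 CPM in SB4 and 2180.5, 2104 and 2287 CPM in BS2, and 159, 193 and 141 CPM in SB2 and 281, 330.1 and 240.4 CPM in BS6. Sparcl1 separated the tissues with a log2 fold change of 3.81 for SB4 against SB2 (SE 0.13, adjusted p = 1.42e-10) and -2.91 for BS6 against BS2 (SE 0.17, adjusted p = 1.86e-05). Its relative Sparc, the collagen-binding osteonectin of bone matrix, ran the other way, at 14529 ± 1750.1 CPM in SB2 and 122 ± 13.4 CPM in SB4. Of the 8 genes of the family, 4 were called higher and 4 lower in SB4 than in SB2. The brain proteoglycan gene Spock2 went with Sparcl1, at 849 ± 20.8 and 42.8 ± 4.49 CPM, and Fstl1 with Sparc, at 27.6 ± 3.82 and 1085 ± 85.9 CPM.

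Apoe (chr7:19696109-19699188, minus strand) carries lipids between cells and is made by astrocytes in brain and by macrophages in many tissues. It was at 629.8, 766 and 631 CPM in SB2 and 1049.9, 1119 and 1139 CPM in SB4. In BS2 it was at 1094, 1213 and 1061 CPM and in BS6 at 1972, 2101 and 1761 CPM. The groups ordered as BS6, BS2, SB4 and SB2, with BS2 and SB4 overlapping (adjusted p = 0.82) and the other neighbours not. Apoe was thus the 1 member that was higher on the labelled later day in both pairs, by a log2 fold change of 0.71 for SB4 against SB2 (SE 0.09, adjusted p = 2.17e-05) and 0.83 for BS6 against BS2 (SE 0.14, adjusted p = 0.00172). Among the 11857 genes with an adjusted p under 0.05 in both pairs, 46 were higher on the later day in both, 0.388%. Of these, 8 had a log2 fold change at or above that of Apoe in each pair. Apoe itself is counted in the 46 and in the 8. Of the 9 members in that set the other 8 changed in opposite directions. The summed level of 8 macrophage markers was 1236 to 1425 CPM in SB2, 1613 to 2719 CPM in BS6, 115 to 135 CPM in SB4 and 111 to 123 CPM in BS2. The part of macrophages in the Apoe levels was not tested.

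**Figure D2:**
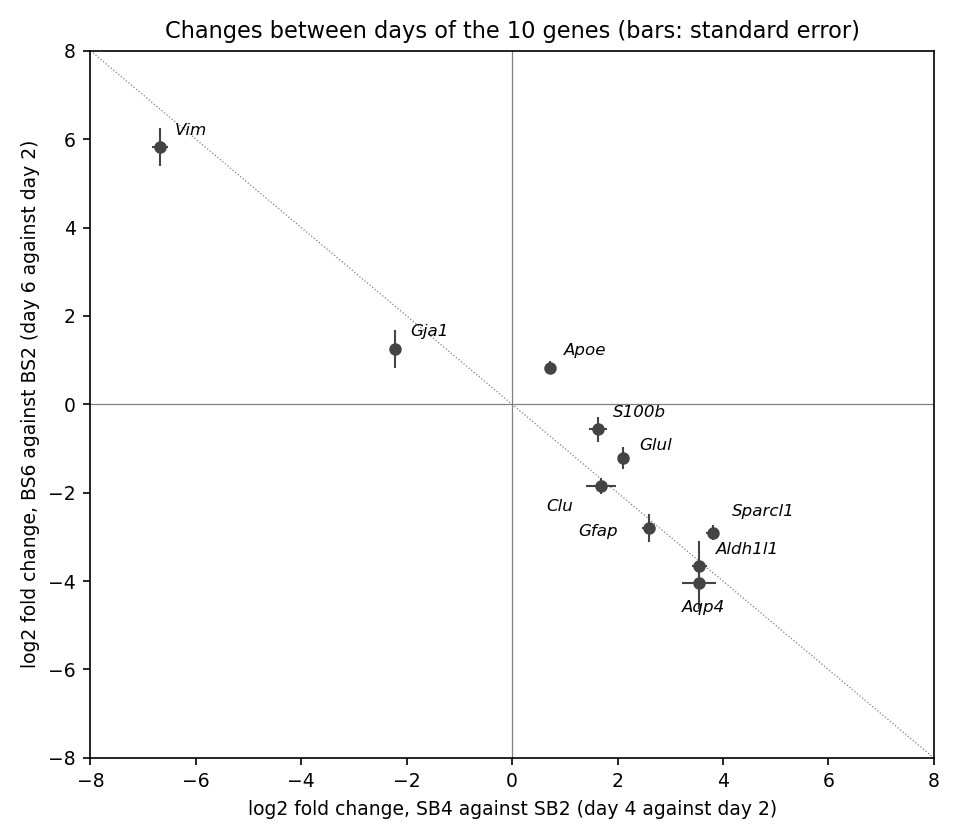
Log2 fold change of each member for SB4 against SB2 (x axis) and for BS6 against BS2 (y axis), with bars of 1 standard error from edgeR and a dotted line where both changes are equal in size and opposite. Of the 10 members, 9 point in opposite directions in the 2 comparisons, and Apoe lies above 0 in both, at 0.71 and 0.83.

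Whether the 2 changes over time differ was tested directly as the contrast of SB4 minus SB2 against BS6 minus BS2 over all 12 libraries. By this test 9 members were called, 7 with a positive and 2 with a negative difference, beside 35.8% and 37.8%, together 73.6%, of all 18068 genes tested. For Apoe, the difference was -0.13 (SE 0.16, adjusted p = 0.444). Leaving out each library in turn moved it between -0.18 and -0.03. On the same day 2, SB2 against BS2 called 9 members, 2 higher (Gja1 and Vim) and 7 lower in SB2, beside 28.6% and 27.6% of all genes. In SB4 against BS6, 6 members were called higher and 2 lower (Gja1 and Vim), beside 26.5% and 28.8%. The call of Gja1 there was lost without any 1 SB4 library (adjusted p up to 0.0627). These comparisons reuse the libraries of the pairs above and are not independent of them.

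How much of each astrocyte transcript the bone-rich libraries held was expressed as a percentage of the mean level in the brain-rich group with the same tissue label. Sparcl1 reached 7.17% in SB2 and 13% in BS6, Aldh1l1 8.51% and 7.57%, and Aqp4 8.55% and 5.83%. Gfap followed at 16.7% and 14%. A middle group was formed by Glul with 23.4% and 41.9%, Clu with 31.3% and 27.1%, and S100b with 32.6% and 65.7%. Apoe, at 61.3% in SB2 and 173% in BS6, Gja1, at 465% and 233%, and Vim, at 10300% and 5510%, were held by bone-rich libraries at brain level or above in at least 1 pair. The spread between libraries was wide in BS6, where Aldh1l1 was at 3.8%, 15.4% and 3.55% in the 3 libraries, Aqp4 ranged from 2.7% to 11.5% and S100b from 40.3% to 89.8%. Without BS6 replicate 2 the BS6 percentages were 3.67% for Aldh1l1 and 2.97% for Aqp4, and between 10.6% (Gfap) and 6390% (Vim) for the other members. These percentages compare CPM within a gene and depend on how much of each library other genes take.

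**Figure D3:**
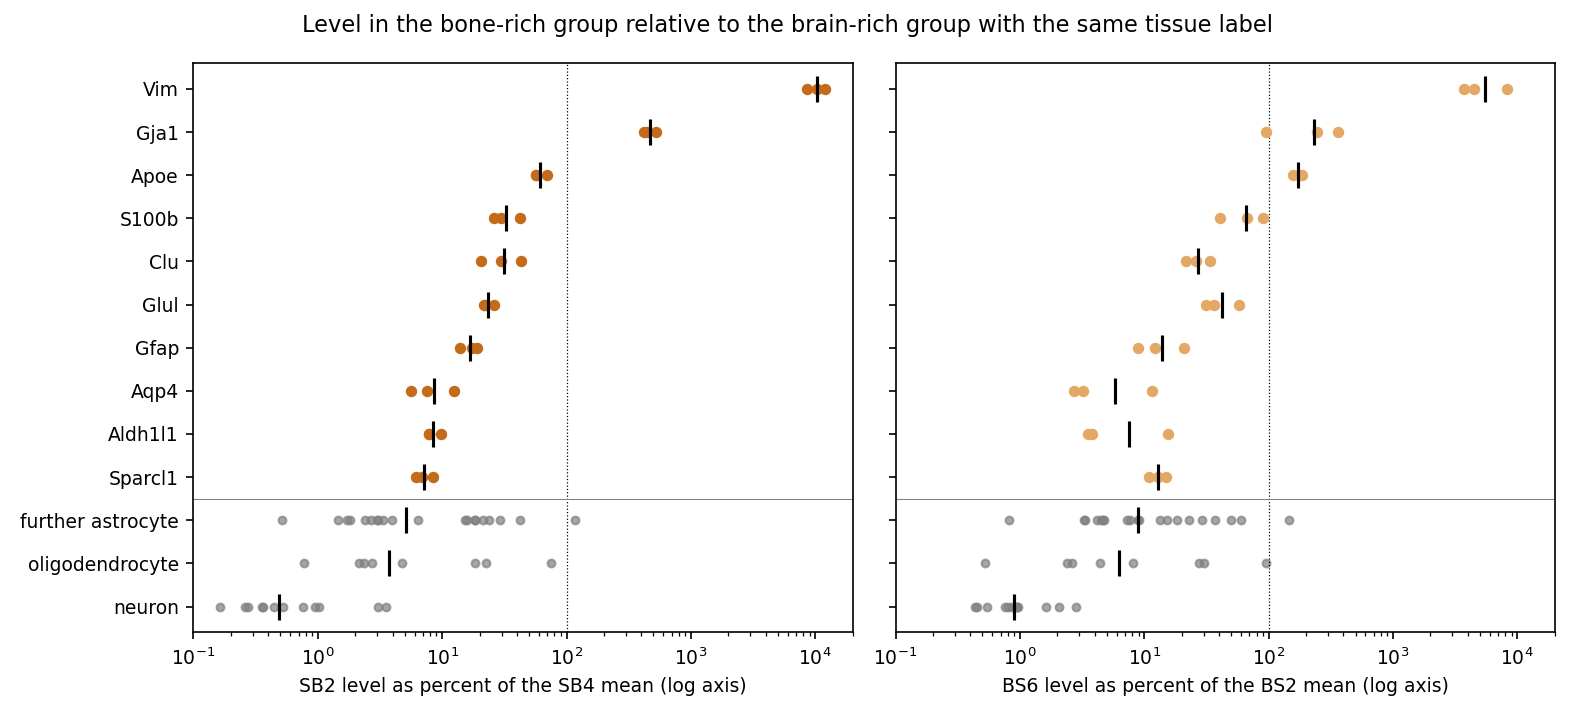
Level in the bone-rich group as a percentage of the mean of the brain-rich group with the same tissue label, on a log axis, for SB2 against SB4 (left) and BS6 against BS2 (right). Points are the 3 libraries for each member and the single genes for the 3 lists in grey, black marks are the mean of a member or the median of a list, and the dotted line is at 100%. The 12 neuron genes lie between 0.162% and 3.52% in SB2, below every member, and Vim, Gja1 and, in BS6, Apoe lie above 100%, except for Gja1 in BS6 replicate 2 at 95.5%.

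Genes of other brain cells served as a reference for these percentages. The median of 12 neuron genes was 0.483% in SB2 and 0.899% in BS6, and the highest of them were Tubb3 at 3.52% in SB2 and Stmn2 at 2.85% in BS6. By group means all 10 members were above the highest neuron gene in both bone-rich groups. The lowest members were Sparcl1 in SB2, at 7.17%, and Aqp4 in BS6, at 5.83%. Without replicate 2 Aqp4 was at 2.97%, and no neuron percentages without that library are given here to set beside it. The 8 oligodendrocyte genes had medians of 3.75% and 6.3%, and the highest of them, Cldn11, was at 74.4% and 95.8%. The 8 microglia genes had medians of 113% and 121%. They ran from Siglech, at 15.2% and 19.1%, to Olfml3, at 6270% and 3860%. A list of 20 further astrocyte genes had medians of 5.16% and 8.98%, under those of the 10 members at 27.3% and 34.5%. Genes of this list named next were picked for their place in this order after their values were seen. Slc1a2 was the lowest of the 20, at 0.517% in SB2 and 0.821% in BS6. Its BS6 mean was 33.6 CPM with replicate 2 and 17.2 CPM without it. Ntsr2 was at 1.45% and 3.28%, and Hepacam at 1.81% and 3.34%. At the other end stood Fgfr3, also the growth plate receptor, at 117% and 147%. The next 3 in both groups were the connexin Gjb6 at 23.6% and 60.1%, the claudin Cldn10 at 29.3% and 50.1%, and Sox9, also the chondrocyte regulator, at 42% and 37%. For Gjb6 the BS6 mean was 28.1 CPM with replicate 2 and 17.6 CPM without it. In CPM the 20 genes summed to 7576 to 7897 in SB4, 7556 to 7995 in BS2, 387 to 582 in SB2 and 409 to 982 in BS6, and none was at 0 in any group.

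The further astrocyte genes changed between the groups as most of the members did. Of the 20, 19 were called higher in SB4 than in SB2, beside 27.8% of all genes, with a median log2 fold change of 4.32. In BS6 against BS2, 17 were called lower, beside 26.5% of all genes, with a median of -3.43. Without BS6 replicate 2 there were 18, and 56.0% of all genes were then called either way. The highest of them by level were Slc1a2, at 3978 ± 154 CPM in SB4 and 20.6 ± 14.9 CPM in SB2, and the second glutamate transporter Slc1a3, at 549.8 ± 62.3 and 35.2 ± 1.91 CPM. A list of 20 genes induced in reactive astrocytes went the other way, opposite to Gfap in both pairs. Of these, 19 were called lower in SB4 than in SB2, beside 28.6% of all genes. All 20 were called higher in BS6 than in BS2, with or without BS6 replicate 2, beside 29.0% of all genes with it. Its members with the highest levels are not specific to astrocytes. Timp1, a protease inhibitor of connective tissue, was at 745 ± 171 CPM in SB2 and 2.06 ± 0.243 CPM in SB4, and Serping1, the complement inhibitor, at 487 ± 52.8 and 2.28 ± 0.88 CPM. Lcn2, a neutrophil granule protein as well, was at 873 ± 1203 CPM in BS6 and 0.279 ± 0.291 CPM in BS2. That BS6 mean rested on replicate 2, and replicates 1 and 3 were at 97.4 and 263 CPM. The list summed to 65.7 to 102 CPM in SB4 and 56.2 to 81.6 CPM in BS2.

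Groups of like tissue content were then compared, where few genes of the table were called. In SB4 against BS2, the brain-rich groups, none of the 10 members was called by edgeR or by DESeq2, beside 0.147% of all 16278 genes. An unadjusted p under 0.05 was found for 3 members, and Gfap and Gja1 had an adjusted p under 0.05, which 0.94% of all genes had. Gfap is described above. Gja1 was lower in SB4, with a log2 fold change of -0.30 (SE 0.06, adjusted p = 0.0117), with libraries that did not overlap, and its adjusted p rose to 0.109 when a library was left out. In a single fit of the 4 groups the adjusted p was 1 for Gfap and 1 for Gja1. Clu was the remaining member without overlap (log2 fold change -0.17, SE 0.05, adjusted p = 0.175), and 16.5% of all genes had libraries that did not overlap. For Glul, Apoe, Sparcl1 and Aldh1l1 the log2 fold changes were 0.01, -0.04, 0.05 and 0.08, with standard errors of 0.05 to 0.09. Of the 20 further astrocyte genes none was called by either tool, and 4 had an unadjusted p under 0.05.

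In SB2 against BS6, the bone-rich groups, 1 member was called, beside 1.86% of all 16329 genes, 1.11% being lower in SB2. This was Apoe, lower in SB2 (log2 fold change -1.54, SE 0.17, adjusted p = 0.0263). The call was lost without any 1 of the other 5 libraries (highest adjusted p = 0.181) and kept without BS6 replicate 2 (log2 fold change -1.48, adjusted p = 0.000929), with a log2 fold change between -1.64 and -1.48 throughout. S100b, Glul and Sparcl1 were the other members whose libraries did not overlap, all lower in SB2, as 38.1% of all genes did not overlap either way. Their log2 fold changes were -1.14 (adjusted p = 0.0885), -0.83 (adjusted p = 0.0958) and -0.81 (adjusted p = 0.0521). S100b passed with DESeq2 (-1.14, adjusted p = 0.0114), and over all alternatives its adjusted p ran from 0.0102 to 0.278. Aqp4 and Aldh1l1 depended on 1 library: with all 3 BS6 libraries they gave 0.32 (adjusted p = 0.764) and 0.23 (adjusted p = 0.828), and without BS6 replicate 2 they were called higher in SB2, at 1.31 (adjusted p = 0.0394) and 1.29 (adjusted p = 0.0163). With any other library left out both gave adjusted p-values over 0.05, up to 0.989 for Aqp4 and 0.942 for Aldh1l1. Of the further astrocyte genes edgeR called none and DESeq2 called 2 of 20, beside 4.83% of all genes by DESeq2. An unadjusted p under 0.05 (edgeR) was found for 3 of these 20 and for 4764 of all 16329 genes. Of the 20 reactive astrocyte genes edgeR called 2 higher and 1 lower in SB2, and DESeq2 called 6. Those called by edgeR were the protease inhibitors Timp1 (log2 fold change 2.68, SE 0.47, adjusted p = 0.0375) and Serpina3n (log2 fold change 2.23, SE 0.41, adjusted p = 0.0403), higher in SB2, and the interferon-induced Iigp1 (log2 fold change -1.96, SE 0.35, adjusted p = 0.038), lower. Each of the 3 stayed called in 1 of the 6 fits that left out a library, the fit without BS6 replicate 2, and their adjusted p reached 0.184 in the others. With the replicate block none of the 3 was called (adjusted p = 0.0995 for each).

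**Figure D4:**
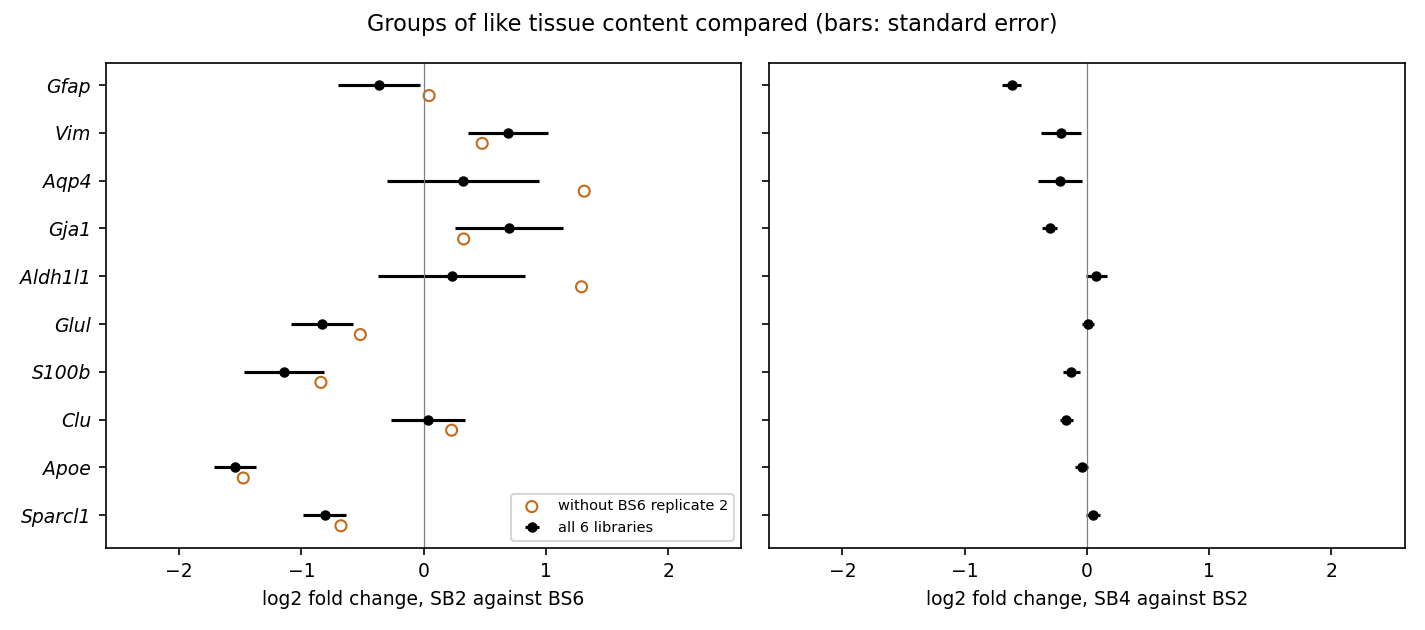
Log2 fold change of each member between groups of like tissue content, SB2 against BS6 (bone-rich, left) and SB4 against BS2 (brain-rich, right), with bars of 1 standard error and open circles for the values without BS6 replicate 2. The brain-rich values lie between -0.62 and 0.08, and the bone-rich values of all 6 libraries spread from -1.54 for Apoe to 0.70 for Gja1.

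Apoe was set beside the other genes of lipoproteins and lipid efflux in the bone-rich groups. Of 14 tested, 3 were called lower in SB2 than in BS6, Apoe among them, beside 1.11% of all genes. Abca1, which loads cholesterol onto apolipoproteins, was at 89.5 ± 4.89 CPM in SB2 and 212 ± 18.2 CPM in BS6 (log2 fold change -1.26, SE 0.11, adjusted p = 0.0184). Abcg1, a second cholesterol exporter, was at 16.1 ± 2.7 and 32.3 ± 2.14 CPM (log2 fold change -1.02, SE 0.15, adjusted p = 0.0311). These calls depended on single libraries. With each of the 6 libraries left out in turn, Abca1 was called 3 times (log2 fold change -1.31 to -1.19, adjusted p up to 0.181), and Abcg1 missed a threshold every time (-1.14 to -0.89, adjusted p up to 0.181). The replicate block ended both calls (adjusted p = 0.0995 for Abca1 and 0.102 for Abcg1). Clu, the other apolipoprotein among the members, gave 0.04 (adjusted p = 0.951). Lrp1, an Apoe receptor, was at 1735 ± 18.8 CPM in SB2 and 1455 ± 197 CPM in BS6 and did not pass (log2 fold change 0.24, SE 0.16, adjusted p = 0.366).

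Levels of different genes were compared per transcript length, as TPM (counts per base of exon, scaled to the same sum in every library), from the exon length of each gene in GENCODE. The 10 members summed to 7571 to 7995 TPM in SB4 and 7369 to 7762 TPM in BS2, and to 3303 to 3837 TPM in SB2 and 4721 to 5799 TPM in BS6. Sparcl1 led both brain-rich groups, with 3114 ± 218 TPM (SD, n = 3) in SB4 and 2892 ± 135 TPM in BS2. Apoe came next at 2059 ± 69.8 and 2035 ± 134 TPM, followed by Glul at 1579.7 ± 48.6 and 1508 ± 97.7 TPM. Bone-rich groups were led by other members. Vim was first in SB2 at 1478 ± 230.3 TPM, ahead of Apoe at 1121 ± 102 TPM, and Apoe was first in BS6 at 3005 ± 253 TPM, ahead of Vim at 865 ± 447 TPM. Apoe made up 56.5% to 60.6% of the summed TPM of the members in the BS6 libraries. Gfap was at 44.9 ± 3.62 TPM in SB4 and 66 ± 4.6 TPM in BS2, near Aldh1l1 at 38.8 ± 5.86 and 35.4 ± 0.805 TPM. Vim was the lowest member in the brain-rich groups, at 16.1 ± 0.969 and 17.9 ± 4.23 TPM.

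**Figure D5:**
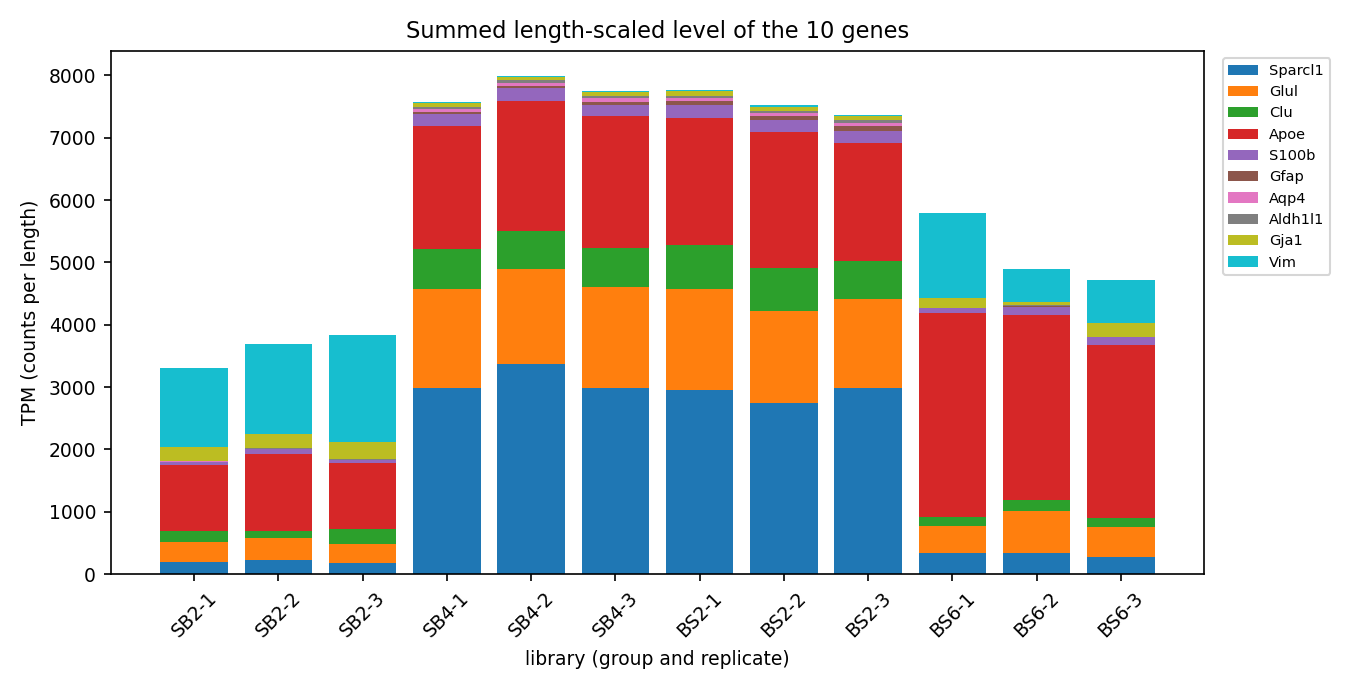
TPM of the 10 members, stacked, in each of the 12 libraries along the x axis, so that the height of a bar is their summed TPM. Sparcl1 takes 36.4% to 42.1% of the sum in the brain-rich libraries and 4.47% to 6.93% in the bone-rich ones, where Vim and Apoe take most of it.

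For each member the 3 genes with the most similar profile over the 12 libraries were taken from the 13035 genes that averaged 5 CPM or more, by the root mean square difference of log2(CPM + 1) after centring each gene. Since the libraries form a brain-rich and a bone-rich set, the points share their tissue content, and the likeness is a description. Glul had the closest neighbour of the 10 members, Stard10 at 0.0847 log2 units. For Apoe it was Bpgm, the bisphosphoglycerate mutase of red cells, at 0.13. Next to Apoe was also Epb41, a red cell membrane protein, at 0.152. Aldh1l1 was the gene nearest to Aqp4, at 0.316, but at least 3 genes lay nearer to Aldh1l1 than Aqp4 did. Vim lay nearest to the mesenchymal genes Prrx2 at 0.243, Acta2 at 0.286 and Col14a1 at 0.293. Around Clu were Usp46 at 0.198 and the microglial receptor gene P2ry12 at 0.212, and around Sparcl1 Ppp1r16b at 0.15, Matk at 0.175 and the potassium channel gene Kcnb2 at 0.186. The nearest gene was Gtdc1 for Gfap at 0.212, Maged2 for Gja1 at 0.187, Ahcyl2 for S100b at 0.185 and Megf11 for Aldh1l1 at 0.267.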

How the data were processed

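The authors extracted RNA with TRIzol, removed DNA, selected poly(A) RNA and sequenced paired-end libraries. They trimmed the reads with fastp and aligned them to mm10 with HISAT2 2.1.0. The counting program, its annotation and its use of strand are not given in the sources used here, nor whether the authors' batch correction with ComBat_seq preceded the table. The deposited values are raw whole-number counts of 22317 genes in 12 libraries, and every row names a gene. The members and the gene lists were chosen with earlier results of these data known.

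All genes were tested with edgeR 4.0.16 (TMM scaling, filterByExpr with a minimum count of 10, quasi-likelihood test, Benjamini-Hochberg adjustment over all genes tested), 2 groups at a time, and the difference of the changes over all 12 libraries. Libraries held 14126082 to 18972654 counts, and a count of 3 was 0.163 to 0.218 CPM. CPM used TMM-scaled library sizes, with mean ± SD over 3 libraries. TPM used GENCODE M21 exon lengths, found for 22022 symbols. Promoters came from RefSeq on GRCm38.p6. All 10 members were named, and list genes by level (up to 4) or by a call between groups of like content, except 1 item that is not reported here. Alternatives were DESeq2 1.42.0, RLE, upper-quartile and total-count scaling, no filter or a stricter one, 1 fit of all groups, a replicate block and leaving out each library. Leaving out BS6 replicate 2 for the lists, and each library or a block for 5 list genes, was added after seeing the data.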

Additional observations from a re-analysis of the deposited data

Results flagged for a closer look

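Of the 10 members, 9 are listed here because their change between days differed between the 2 injuries, by the test of SB4 minus SB2 against BS6 minus BS2 over the 12 libraries. The difference of the log2 fold changes was 5.37 for Gfap, 7.58 for Aqp4, 7.21 for Aldh1l1, 2.18 for S100b, 3.30 for Glul, 3.51 for Clu and 6.70 for Sparcl1, each higher in the SB pair. It was -3.48 for Gja1 and -12.52 for Vim, each lower in the SB pair. Adjusted p-values (edgeR) ran from 1.23e-10 for Sparcl1 to 0.000148 for S100b. SB4 and BS2 are the brain-rich groups. Each of these differences goes with the tissue content of the libraries, and injury, day and tissue content cannot be told apart here. Of all genes tested, 73.6% were called in the same contrast.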

How the results depend on the processing

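Of 1020 tested changes of single members under an alternative, 989 kept their direction and their side of the thresholds. Among the members, percentages between tissues depended on BS6 replicate 2 for Aldh1l1 (7.57% with it, 3.67% without) and Aqp4 (5.83% and 2.97%). List genes moved as well: without it the BS6 mean fell from 28.1 to 17.6 CPM for Gjb6 and from 33.6 to 17.2 CPM for Slc1a2. The number of members called in SB2 against BS6, 1 as reported, was 2 with DESeq2, 2 with all groups in 1 fit and 0 with the replicate block, and 0 to 3 when 1 library was left out. These counts moved with those over all genes, which were 303 as reported, 1072 with DESeq2 and 1273 in the joint fit. Over all genes edgeR called 667 without BS6 replicate 2, 34 and 32 without BS6 replicates 1 and 3, and 0 without any 1 SB2 library or with the block, where 2938 to 3950 genes had an unadjusted p under 0.05. DESeq2 and the joint fit added S100b (adjusted p = 0.0114 and 0.0102). The block removed Apoe there (adjusted p = 0.0995) and Gja1 in BS6 against BS2 (log2 fold change 1.07, adjusted p = 0.0509). It changed no other call of a member. Deviations of same-numbered libraries correlated between -0.0941 and 0.0619 over 18 pairs, and those of other-numbered libraries between -0.135 and 0.173. Most pairs set a brain-rich beside a bone-rich library, and each group has 3 libraries. These values therefore cannot tell whether the replicate numbers pair the libraries. The cause of the changed calls was not tested. Directions turned only between groups of like content when a library was left out. In SB2 against BS6 the log2 fold changes then ran from -0.61 to 0.0452 for Gfap, -0.0412 to 1.31 for Aqp4, -0.11 to 1.29 for Aldh1l1 and -0.27 to 0.27 for Clu. In SB4 against BS2 they ran from -0.080 to 0.0123 for Apoe, -0.0205 to 0.0475 for Glul, -0.0525 to 0.14 for Aldh1l1 and -0.00834 to 0.0815 for Sparcl1. The lowest value of a member was 23 counts or 1.46 CPM, for Aldh1l1 in BS6 replicate 3. It was above a count of 3, which was 0.163 to 0.218 CPM.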
